A study of Mus musculus with 2 samples.

Results

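The genes described here are 39 components of NF-kappaB and Toll receptor signalling, chosen by name and not by a cut on measured values. Earlier results of these data were known at that choice. They are the subunits of NF-kappaB, their IkappaB inhibitors, the kinases that act on the inhibitors and the adaptors of Toll receptors. Also included are the TRAF and cIAP proteins of TNF receptor complexes, Bcl10 and Malt1, and the regulators that add or remove ubiquitin. Irak1, Irak2, Traf6 and Relb were not among them. They are 39 of the 23296 genes in the data. Of these, 38 had a mean over both libraries of at least 1 RPKM (reads per kilobase of transcript, relative to each library's mapped reads), as did 11095 genes in all, and are called measured below. The remaining one was Irak3.

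Thymus RNA was sequenced from miR-146a Tg mice and from WT mice, both of the Balb/c strain and 5 to 6 weeks of age. Each genotype had 1 library, made from the pooled thymuses of 1 male and 1 female. No spread between animals was therefore measured and no test between genotypes was possible, so every difference below is between these libraries. The Tg line expresses miR-146a systemically, was obtained from another laboratory, and the promoter of its transgene is not given in the sources used here. The WT mice were bred from purchased animals, so differences between the colonies and the transgene cannot be told apart. Polyadenylated RNA was selected, which does not retain mature miRNA, so the level of miR-146a itself was not measured here.

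The values rested on 15396696 fragments in the Tg library and 14522669 in the WT library. A count of 3 fragments on a transcript of 1 kb corresponded to 0.195 RPKM in the Tg library and 0.207 RPKM in the WT library. Each ratio divides the Tg value by the WT value, without a pseudocount. Its 95% interval is an exact binomial one on fragment counts and holds counting error alone. A gene took the value of its transcript with the highest mean, and a gene was counted as higher or lower when the ratio passed 1.5-fold. Markers of other cells moved between the libraries as well. In the Tg library all 15 markers of cell division were higher. Most of the 13 markers of double-positive (DP) thymocytes did not pass 1.5-fold: 2 were higher (Ptcra and Arpp21) and 0 lower. Lower were 13 of 16 markers of mature single-positive (SP) thymocytes and 7 of 8 measured markers of neutrophils. By comparison, 7.74% of all measured genes were higher and 11.0% lower. These marker lists were chosen with earlier results of these data known. The thymic label was borne out by Rag1, the recombinase of DP thymocytes, at 514 RPKM in the Tg library and 413 RPKM in the WT library.

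NF-kappaB is a family of dimeric transcription factors that IkappaB proteins hold in the cytoplasm. Signals from Toll and IL-1 receptors, TNF receptors and antigen receptors converge, through chains of adaptors and ubiquitin ligases, on a kinase complex that marks IkappaB for destruction, while a separate route through the kinase encoded by Map3k14 releases dimers formed with the Nfkb2 product. In the thymus the pathway acts in thymic epithelium, where it is needed for the medulla, and in thymocytes at selection and maturation. miR-146a is itself induced by NF-kappaB and is best known for repressing adaptors upstream of it. A miRNA acts through its seed, the bases near its 5′ end, which pair with complementary bases mostly in the 3′ UTR of an mRNA.

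The mature miR-146a sequence is shown first because the matches searched for in the components derive from it. It is given 5′ to 3′ from RefSeq (mmu-miR-146a-5p, GRCm38.p6, chr11:43374435-43374456, minus strand), with the seed, bases 2 to 8, in capitals.
mmu-miR-146a-5p: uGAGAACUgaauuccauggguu

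Perfect matches to this seed were searched in the annotated 3′ UTR of the measured transcripts (GENCODE M21, GRCm38). An 8-base match reads AGTTCTCA, and a 7-base match reads AGTTCTC or GTTCTCA, on the transcript strand, with a 7-base match inside an 8-base match not counted again. The search covered 36 of the 38 measured components (94.7%), all but Traf5 and Ripk1, whose counted lengths could not be tied to an annotated transcript. A match was present in 6 of the 36 (16.7%), against 18.3% of the 9259 measured genes searched. An 8-base match was present in 2 of them, Rel and Chuk (5.56%), against 3.88% of all genes searched. Both shares lay close to those of the measured genes as a whole. The components' median log2 ratio was -0.06 with a match and -0.06 without, and among all measured genes searched it was 0.038 with a match and 0.045 without.

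Rel, which encodes the lymphoid NF-kappaB subunit c-Rel, stood apart in the number of its matches. Its 3′ UTR of 5418 bases held 6, which is 1.11 per kilobase, against 0.243 per kilobase over the measured components and 0.162 per kilobase over all measured genes searched. The figure for the components includes Rel itself, which held 6 of their 13 matches. Rel was the 1 gene of 9259 with 6 or more matches, a cutoff that equals its own count, while 2.37% of those genes had a 3′ UTR at least as long. All 6 matches of Rel lie on the minus strand in exon 10 of 10. They are shown, with flanks and with the match in capitals, because no other component held more than 3. They start at base 476 (chr11:23741783-23741789), 1031 (chr11:23741228-23741234), 2926 (chr11:23739333-23739339), 3065 (chr11:23739194-23739200), 3140 (chr11:23739119-23739125) and 5256 (chr11:23737002-23737009) after the stop codon, and the sixth is the 8-base match.
Rel 476: tctttttagatGTTCTCAttccgtttgat
Rel 1031: actcagccttcAGTTCTCctgctctgcct
Rel 2926: attcaacttttGTTCTCAaagatatgttt
Rel 3065: gggaccccagaAGTTCTCcgcacctccaa
Rel 3140: ttttgctaattAGTTCTCcatttggaaaa
Rel 5256: atttttttttaAGTTCTCAagatactggta

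Chuk, which encodes the IKK-alpha kinase, held the other 8-base match, at base 1077 of a 3′ UTR of 1236 bases (chr19:44073488-44073495, minus strand, exon 21 of 21).
Chuk 1077: aaaatctgaacAGTTCTCAttctgaaacat

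Of the other matched components, Tirap held 3 matches in 3360 bases, and Nfkbib, Ikbkg and Cyld held 1 each. Rel was 1.51-fold lower in the Tg library and Chuk had a ratio of 0.802, while Tirap had a ratio of 1.16. A match describes these letters and does not show that the miRNA bound there.

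**Figure D1:**
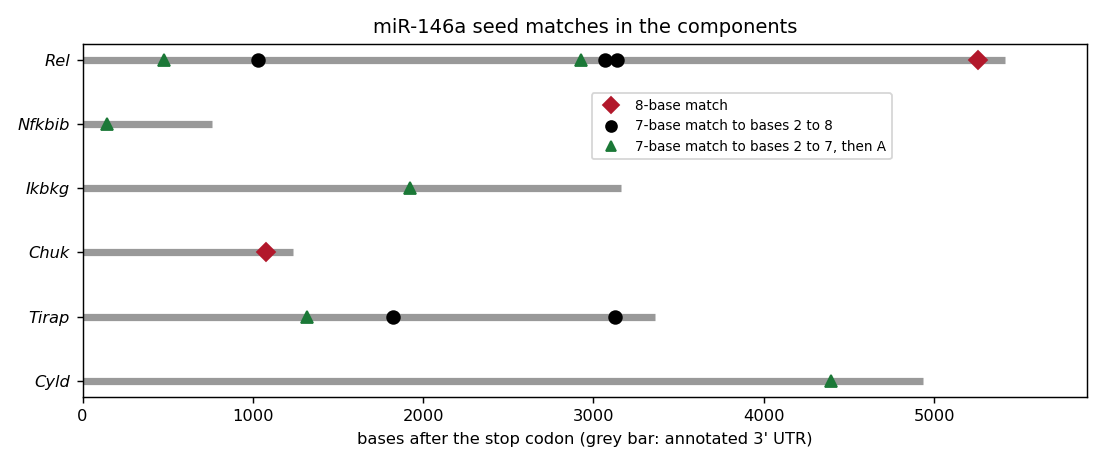
Positions of miR-146a seed matches (symbols) along the annotated 3′ UTR (grey bars, bases after the stop codon) of the 6 components with a match. Rel carries 6 matches, Tirap 3, and the 8-base matches are in Rel and Chuk.

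Of the 38 measured components, 0 were higher in the Tg library by over 1.5-fold (against 7.74% of all measured genes), and 3 were over 1.5-fold lower (7.89%, against 11.0% of all measured genes). These were Bcl3, Traf5 and Rel. A share of 18.7% of all measured genes passed 1.5-fold in either direction, and the difference between the shares was not tested. The other 35 lay within 1.5-fold, from a log2 ratio of -0.58 for Otulin, which is 1.49-fold lower, to 0.35 for Tab1. The 3 lower components all had a mean under 5 RPKM. They were 3 of the 9 components between 1 and 5 RPKM, a range in which 17.2% of all measured genes were lower. Among components at 5 to 20 RPKM, 0 of 16 were lower (8.54% of all genes in that range), and at 20 RPKM or more 0 of 13 (8.58%).

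The median log2 ratio was -0.07 for the components and 0.03 for all measured genes. Of the 11095 measured genes, 5161 lay below their WT value and 5934 above. Of the 38 components, 26 lay below their WT value and 12 above. Their SD on the log2 scale was 0.32, against 0.56 for all measured genes. The middle 90% of the components spanned -0.62 to 0.23, against -0.89 to 0.74 for all measured genes. The spread of all genes fell with level, since the SD was 0.71 at 1 to 5 RPKM and 0.49 at 5 RPKM or more, where 29 of the 38 components lay. Summed over the 39 genes, the level was 748 RPKM in the Tg library and 789 RPKM in the WT library. The ratio of these sums was 0.949, against 0.917 for the sums over all measured genes. When both libraries were rescaled to the same sum of deposited values, the median of all measured genes moved to 0.15 and that of the components to 0.05, so the sign of the components' median depended on the scaling. After that rescaling, 14 of the 38 components had a log2 ratio below 0. With no minimum level, the median was -0.07 for the 39 components and -0.08 for all 23296 genes.

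**Figure D2:**
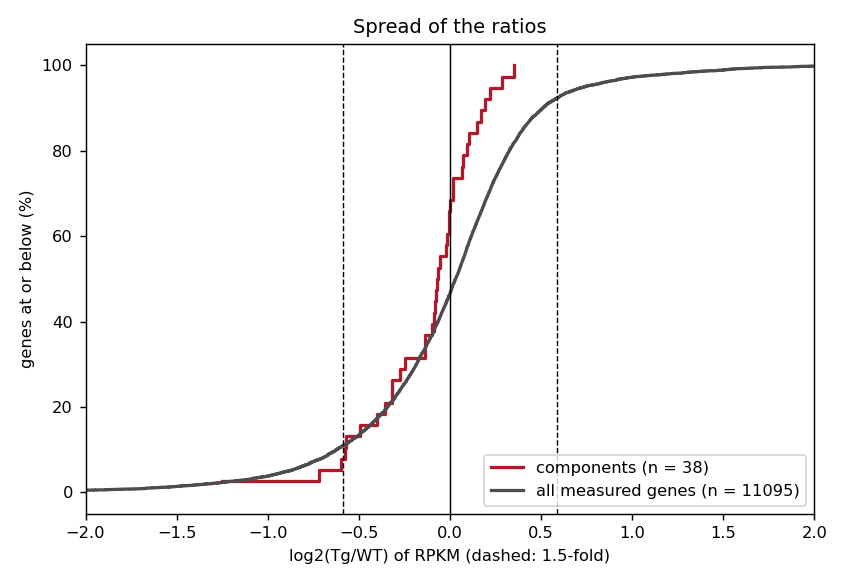
Cumulative share of genes (percent, vertical axis) at or below each log2(Tg/WT) of RPKM (horizontal axis) for the 38 measured components and all 11095 measured genes, with 1.5-fold marked by dashed lines. The curve of the components is steeper and ends at 0.35, while 7.74% of all measured genes lie beyond the right dashed line.

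Among the NF-kappaB subunits, the common subunits differed little and Rel was lower. Nfkb1, the precursor of a DNA-binding subunit without a transactivation domain, had 37.3 RPKM in the Tg library and 37.8 RPKM in the WT library, a ratio of 0.987 (0.931 to 1.05). Rela, the main transactivating subunit, had 35.8 RPKM in the Tg library and 31.4 RPKM in the WT library, a ratio of 1.14 (1.06 to 1.23). These were the most abundant subunits in both libraries. Nfkb2, the precursor of the subunit of the alternative route, had 5.55 RPKM in the Tg library and 5.57 RPKM in the WT library. Rel (chr11:23736847-23770969) had 3.24 RPKM in the Tg library and 4.90 RPKM in the WT library, from 387 and 552 fragments, which is 1.51-fold lower (1.33 to 1.73). Rela therefore exceeded Rel 11.0-fold in the Tg library and 6.40-fold in the WT library, while Nfkb1 exceeded Nfkb2 6.72-fold in the Tg library and 6.79-fold in the WT library. The fold of Rel lies at the threshold and its interval spans it, and Rel was no longer past 1.5-fold with a pseudocount of 0.1 or 1 RPKM or after rescaling to one sum. Its fragment counts assume a counted length of 7752 bases. In a bulk sample, fewer cells that express Rel and less Rel RNA per cell cannot be told apart, and this holds for every gene below.

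Of the IkappaB proteins, the 3 classical inhibitors, which bind NF-kappaB in the cytoplasm, had ratios above 1. Bcl3 and Nfkbiz, nuclear members that act as cofactors of DNA-bound subunits, had ratios below 1, while Nfkbid, a nuclear IkappaB protein outside the 39 genes, had a ratio of 1.08 (0.955 to 1.21). Nfkbia, the classical inhibitor and itself an induced target of NF-kappaB, was the most abundant component, with 147 RPKM in the Tg library and 137 RPKM in the WT library, a ratio of 1.08 (1.03 to 1.13). It ranked among the top 3.30% of measured genes in the Tg library and the top 3.97% in the WT library. Nfkbie, the epsilon inhibitor, had 19.8 RPKM in the Tg library and 16.3 RPKM in the WT library, a ratio of 1.22 (1.09 to 1.36). Nfkbib, the beta inhibitor, had 10.5 RPKM in the Tg library and 9.88 RPKM in the WT library, a ratio of 1.065 (0.904 to 1.26). Its interval spans 1.

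Bcl3 (chr7:19808462-19822824) had the lowest ratio of the measured components. It had 1.88 RPKM in the Tg library and 4.47 RPKM in the WT library, from 53 and 119 fragments, which is 2.38-fold lower (1.71 to 3.36). Bcl3 passed 1.5-fold under every scaling and pseudocount tried. It was the 1 component over 2-fold lower, against 3.84% of all measured genes, while 0 were over 2-fold higher, against 2.79%. Its mean of 3.17 RPKM lay below the stricter minimum of 5 RPKM. Nfkbiz had 4.37 RPKM in the Tg library and 6.15 RPKM in the WT library, a ratio of 0.711 (0.598 to 0.845), and its 3 listed transcripts had ratios between 0.711 and 0.758. Nfkbia stood at 4.11 times the level of Rela in the Tg library and 4.36 times in the WT library.

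Several of these genes are known targets of NF-kappaB, so their promoters were searched for the kappaB consensus, a motif of 10 letters. RefSeq promoters (GRCm38.p6, 250 bases before to 50 after each listed start) were held for 34 of the 39 components, and both strands were searched, with overlapping matches counted once. A match was present in 11 of the 34 (32.4%), against 11.9% of the 8776 measured genes with a promoter and 9.55% of all 27025 genes with one. The matches are those of Nfkb2, Rel, Nfkbia, Nfkbie, Bcl3, Map3k7, Traf3, Bcl10, Tnfaip3, Tnip1 and Cyld. Shown here, with the motif in capitals and on the strand of the gene, is 1 match each for the subunits and inhibitors described above and for Tnfaip3. Nfkb2, over its listed starts, and Tnfaip3 held further matches that are not shown. Those shown lie 29 bases before the start of Nfkbia (chr12:55492667-55492676, minus strand), 106 before that of Nfkbie (chr17:45555594-45555603, plus strand), 39 before that of Nfkb2 (chr19:46304698-46304707, plus strand), 92 before that of Rel (chr11:23771052-23771061, minus strand), from base 3 after that of Bcl3 (chr7:19822744-19822753, minus strand) and 12 before that of Tnfaip3 (chr10:19015413-19015422, minus strand).
Nfkbia: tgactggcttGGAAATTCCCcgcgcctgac
Nfkbie: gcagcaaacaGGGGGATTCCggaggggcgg
Nfkb2: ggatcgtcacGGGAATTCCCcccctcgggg
Rel: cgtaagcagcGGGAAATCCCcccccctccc
Bcl3: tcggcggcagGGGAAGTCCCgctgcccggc
Tnfaip3: aatttccatcGGAAATCCCCctgttggcaa

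The components with a promoter match covered nearly the whole range of differences, from a log2 ratio of -1.25 for Bcl3 to 0.29 for Nfkbie. Their median was -0.08 (11 genes), against -0.06 for the 22 measured components with a promoter and no match. Of the 3 lower components, Bcl3 and Rel held a match and Traf5 did not. No relation between a match and the ratio was tested, and a match shows no binding.

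**Figure D3:**
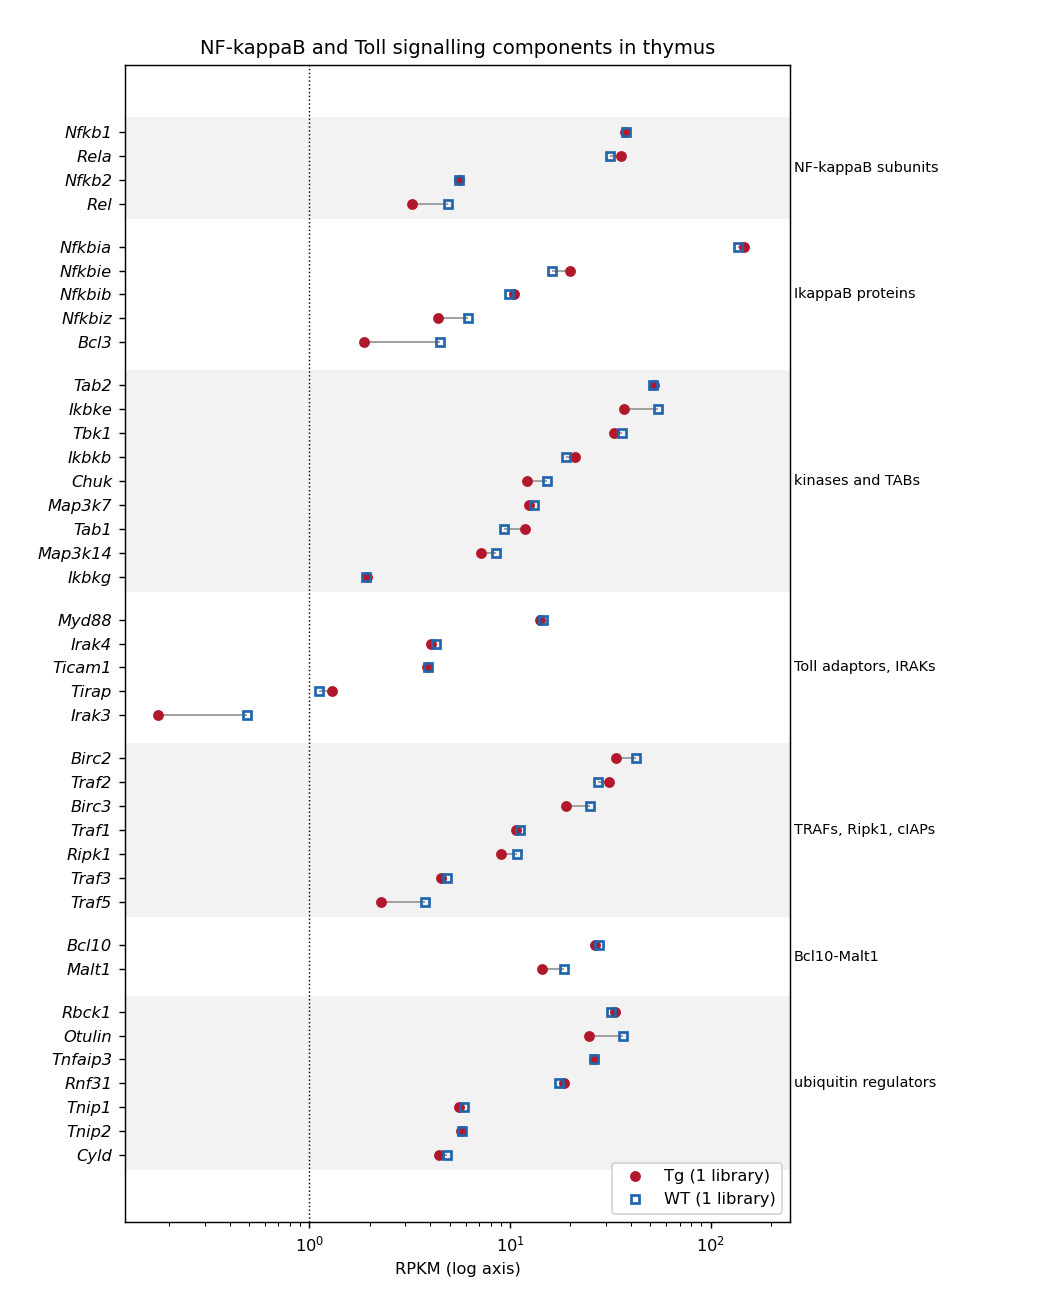
RPKM (log axis) of the 39 components in the Tg library (filled circles) and the WT library (open squares), grouped by role and ordered by mean, with the minimum mean of 1 RPKM dotted. Most pairs of symbols overlap, and the widest gaps among measured components are those of Bcl3, Traf5 and Rel.

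Of the kinases and their partners, none of 9 passed 1.5-fold, and Ikbke came closest. Tab2, an adaptor that carries the kinase TAK1 to ubiquitin chains, was the most abundant, with 52.3 RPKM in the Tg library and 51.7 RPKM in the WT library, a ratio of 1.01 (0.964 to 1.06). Ikbke, an IKK-related kinase of interferon induction, had 37.0 RPKM in the Tg library and 54.9 RPKM in the WT library, from 1824 and 2553 fragments, which is 1.48-fold lower, with a ratio of 0.674 (0.634 to 0.716). Its relative Tbk1, which acts in the same route, had 32.9 RPKM in the Tg library and 36.2 RPKM in the WT library, a ratio of 0.909 (0.847 to 0.976). The interval of Ikbke lies below that of Tbk1.

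The subunits of the IKK complex itself differed in direction, all within 1.5-fold. Ikbkb, its catalytic subunit for the classical route, had 21.0 RPKM in the Tg library and 19.0 RPKM in the WT library, a ratio of 1.11 (1.02 to 1.21). Chuk, the other catalytic subunit, had 12.2 RPKM in the Tg library and 15.2 RPKM in the WT library, a ratio of 0.802 (0.722 to 0.892). Their intervals do not overlap. Ikbkg, the regulatory subunit NEMO, had 1.94 RPKM in the Tg library and 1.91 RPKM in the WT library, while its 7 listed transcripts had ratios from 0.778 to 1.01.

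Of the kinases upstream, Map3k14, which drives the alternative route, had 7.21 RPKM in the Tg library and 8.55 RPKM in the WT library, a ratio of 0.843 (0.742 to 0.958). Map3k7, which encodes TAK1, had 12.5 RPKM in the Tg library and 13.2 RPKM in the WT library. Tab1, a partner that activates TAK1, had 11.9 RPKM in the Tg library and 9.30 RPKM in the WT library, and its ratio of 1.28 (1.12 to 1.46) was the highest of all measured components. Tab1 was also the 1 component whose Tg value exceeded the WT value by over 25%, as 20.3% of all measured genes did, while in 8 components the WT value exceeded the Tg value by as much, against 21.2% of all measured genes.

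The Toll adaptors were present at low to moderate levels and differed little. Myd88, the adaptor of most Toll and IL-1 receptors, had 14.1 RPKM in the Tg library and 14.7 RPKM in the WT library, a ratio of 0.962 (0.837 to 1.11). Irak4, the first kinase recruited to Myd88, had 4.05 RPKM in the Tg library and 4.29 RPKM in the WT library, a ratio of 0.943 (0.761 to 1.17). Ticam1, the adaptor of the route that does not need Myd88, had 3.86 RPKM in the Tg library and 3.92 RPKM in the WT library. All 3 intervals span 1. Tirap, which bridges some Toll receptors to Myd88, had 1.30 RPKM in the Tg library and 1.12 RPKM in the WT library, with a wide interval of the ratio (0.853 to 1.59). Irak3, an inhibitory member of the family known mainly from macrophages, had 0.175 RPKM in the Tg library and 0.487 RPKM in the WT library, from 8 and 21 fragments, and was too low to enter the counts.

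In the group of TNF receptor complexes, 6 of 7 components were below their WT value, and the median log2 ratio of -0.27 was the lowest of the 7 roles. Of the 11095 measured genes, 5161 were below their WT value. Of the 7 components, 1 was over 1.5-fold lower. Traf5 (chr1:191997203-192092599), an adaptor of TNF receptor family members on lymphocytes, had 2.28 RPKM in the Tg library and 3.75 RPKM in the WT library, from 74 and 115 fragments, which is 1.65-fold lower (1.22 to 2.24). Its transcript length could not be set against the annotation, so its fragments and interval rest on the length recovered from the values, and with a pseudocount of 1 RPKM it was no longer past 1.5-fold. Birc2, a ubiquitin ligase of these complexes, had 33.9 RPKM in the Tg library and 42.2 RPKM in the WT library, a ratio of 0.803 (0.752 to 0.858). Birc3, its neighbour on chromosome 9 and close relative, had 19.0 RPKM in the Tg library and 25.1 RPKM in the WT library, a ratio of 0.756 (0.689 to 0.830). Birc2 and Birc3 thus lay at similar distances below WT, with overlapping intervals, though reads shared between such relatives could have been assigned to either or dropped.

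Traf2, the adaptor that recruits both cIAPs, had 31.0 RPKM in the Tg library and 27.6 RPKM in the WT library, a ratio of 1.13 (1.04 to 1.22). The difference therefore ran opposite to that of its partners Birc2 and Birc3. Ripk1, the kinase scaffold of the TNF receptor, had 8.97 RPKM in the Tg library and 10.8 RPKM in the WT library, a ratio of 0.827 (0.742 to 0.923) whose interval assumes the shortest length that fits the values. Traf1, which modifies Traf2 complexes, had 10.7 RPKM in the Tg library and 11.2 RPKM in the WT library. Traf3, which keeps the Map3k14 kinase at low levels, had 4.52 RPKM in the Tg library and 4.83 RPKM in the WT library. The intervals of Traf1 and Traf3 span 1.

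Bcl10 and Malt1 link antigen receptors to the IKK complex. Bcl10, the scaffold, had 26.4 RPKM in the Tg library and 27.7 RPKM in the WT library, a ratio of 0.955 (0.865 to 1.06). Malt1, a protease and scaffold, had 14.5 RPKM in the Tg library and 18.6 RPKM in the WT library, a ratio of 0.782 (0.722 to 0.847). Malt1 was therefore below its partner by more than the counting error of either.

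Of the 7 ubiquitin regulators, 6 had intervals of the ratio that span 1, and Otulin was lower than these. Rbck1 and Rnf31 encode subunits of the complex that builds linear ubiquitin chains. Rbck1 had 33.5 RPKM in the Tg library and 32.0 RPKM in the WT library, a ratio of 1.05 (0.965 to 1.14), and Rnf31, the catalytic subunit, had 18.5 RPKM in the Tg library and 17.6 RPKM in the WT library. Otulin, the enzyme that removes linear chains, had 24.6 RPKM in the Tg library and 36.7 RPKM in the WT library, from 565 and 794 fragments, which is 1.49-fold lower. The intervals of Rbck1 and Rnf31 (0.959 to 1.16) span 1, while that of Otulin (0.602 to 0.749) lies below 1. Otulin fell just inside 1.5-fold.

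Tnfaip3, a ubiquitin-editing inhibitor of the pathway and an induced target of NF-kappaB, had 26.1 RPKM in both libraries, a ratio of 0.999 (0.934 to 1.07). Its binding partner Tnip1 had 5.56 RPKM in the Tg library and 5.92 RPKM in the WT library, and Tnip2, another partner, had 5.72 RPKM in the Tg library and 5.74 RPKM in the WT library. Cyld, which removes ubiquitin chains from components of the pathway, had 4.43 RPKM in the Tg library and 4.87 RPKM in the WT library, a ratio of 0.908 (0.806 to 1.02). All 4 intervals span 1.

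**Figure D4:**
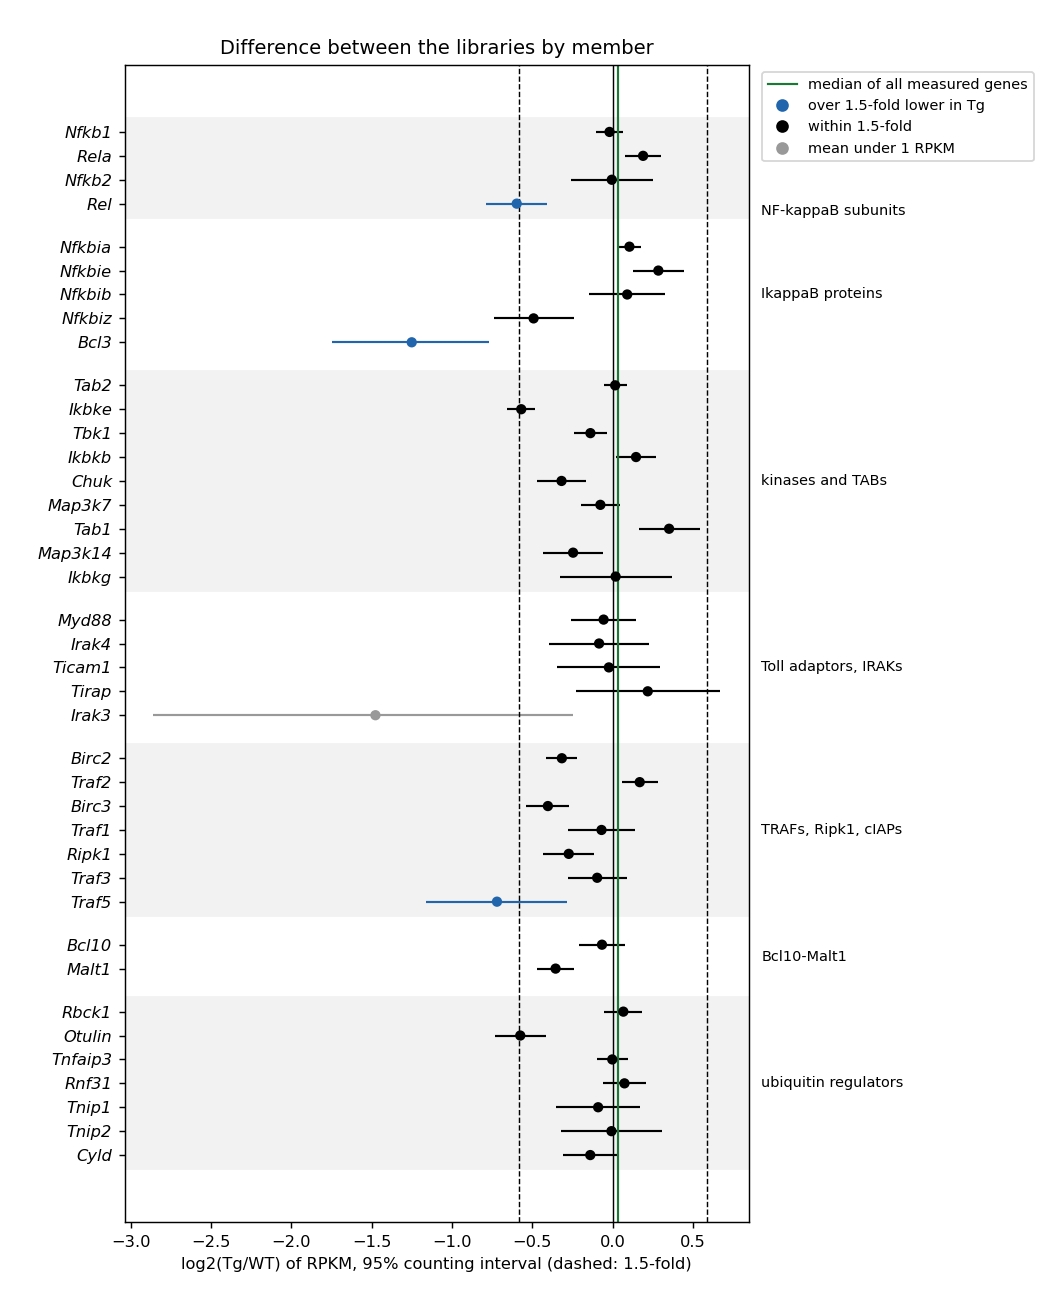
log2(Tg/WT) of RPKM with the 95% counting interval for each of the 39 components by role, with 1.5-fold dashed and the median of all measured genes as a green line. Bcl3, Traf5 and Rel lie beyond the left dashed line, Ikbke and Otulin lie beside it, and no component reaches the right one.

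Genes around these components were described by lists of receptors, further components and targets, 116 genes of which 84 were measured. Of the 84, 1 passed 1.5-fold upwards in the Tg library and 27 downwards, with a median log2 ratio of -0.15. Of all measured genes, 7.74% were higher and 11.0% lower, and 17.2% were lower among those at 1 to 5 RPKM. The lists of receptors and of induced genes held 21 of the 27 lower genes.

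Of 11 measured Toll and IL-1 family receptors and their partners (of 23 listed), 0 were higher and 6 were lower (54.5%, against 11.0% of all measured genes), with a median log2 ratio of -0.89. Tlr1, a receptor for bacterial lipopeptides, had 1.83 RPKM in the Tg library and 4.24 RPKM in the WT library, and Tlr7, a receptor for single-stranded RNA, had 0.850 RPKM in the Tg library and 2.44 RPKM in the WT library. Unc93b1, the chaperone of Toll receptors in endosomes, had 1.35 RPKM in the Tg library and 2.95 RPKM in the WT library. Il18r1, a chain of the IL-18 receptor, had a ratio of 0.439 (0.369 to 0.521). The other lower genes were Ly86 and Il18rap. Sigirr, an inhibitory receptor, and Tlr12 were the most abundant of the list, with ratios of 0.826 and 1.22, and 12 of the 23 listed genes did not reach the minimum. Only 3 genes of the list had a mean of at least 5 RPKM, 1 of them lower (8.56% of all genes at that minimum), and their median was -0.28. The median of the 11 was -0.51 with a pseudocount of 1 RPKM.

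Of 10 measured genes of the TNF receptor family, 0 were higher and 3 were lower (against 11.0% of all measured genes), with a median log2 ratio of -0.22. The lower genes were Tnfrsf4, Tnfrsf18 and Tnfrsf25, and the other 7 lay within 1.5-fold. Tnfrsf4, which encodes OX40, had 6.64 RPKM in the Tg library and 15.3 RPKM in the WT library, Tnfrsf18, which encodes GITR, had 13.3 RPKM in the Tg library and 22.9 RPKM in the WT library, and Tnfrsf25 had 2.19 RPKM in the Tg library and 5.28 RPKM in the WT library. Cd27, the most abundant, had 187 RPKM in the Tg library and 196 RPKM in the WT library, and Tnfrsf1a, the main TNF receptor, had a ratio of 1.22.

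Of the genes that carry the antigen receptor signal towards Bcl10, 0 of the 9 measured passed 1.5-fold in either direction, and the median log2 ratio was 0.08. Of all measured genes 18.7% passed it, and at 20 RPKM or more 4.83% were higher and 8.58% lower. Prkcb, a protein kinase C, had 101 RPKM in the Tg library and 88.7 RPKM in the WT library, and Prkcq, the protein kinase C of the T cell synapse, had 85.0 RPKM in the Tg library and 94.2 RPKM in the WT library.

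Of 33 measured further components, 1 was higher (against 7.74% of all measured genes) and 6 were lower (against 11.0%), with a median log2 ratio of -0.04. Peli2, a ubiquitin ligase of IRAK proteins, had 2.84 RPKM in the Tg library and 1.35 RPKM in the WT library. The lower genes were Map3k8, Tank, Irf7, Nod1, Card9 and Trim30a. Tank, a scaffold of Tbk1 and Ikbke, had 9.47 RPKM in the Tg library and 16.7 RPKM in the WT library. Irf7, an interferon-inducible transcription factor downstream of Toll receptors, had 2.87 RPKM in the Tg library and 7.66 RPKM in the WT library, and Trim30a, also interferon-inducible, had a ratio of 0.365 (0.333 to 0.401).

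Of 22 measured genes known to be induced by NF-kappaB (of 33 listed), 0 were higher and 12 were lower (54.5%, against 11.0% of all measured genes), with a median log2 ratio of -0.64. At a minimum mean of 5 RPKM, 5 of 13 were lower (8.56% of all genes at that minimum) and the median was -0.045. Ltb, a lymphotoxin chain, had 129 RPKM in the Tg library and 201 RPKM in the WT library. Bcl2a1b and Bcl2a1d, near-identical copies of a survival gene whose reads may be shared, had ratios of 0.292 and 0.308. Ccr7, a chemokine receptor that is also a marker of mature SP thymocytes, had 22.2 RPKM in the Tg library and 42.6 RPKM in the WT library. Without Ccr7 and both Bcl2a1 copies, 9 of 19 genes were lower and the median was -0.28. The other lower genes were Tnf, Lta, Il1b, Ccl4, Gadd45b, Cd83, Mmp9 and Cd44. Other survival genes of the list, named after their values were seen, did not share the low ratios of the Bcl2a1 copies, with 1.07 for Bcl2l1, 1.03 for Cflar and 1.09 for Xiap.

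Markers of several cell types moved beside these lists. The counts below stand against 7.74% higher and 11.0% lower among all measured genes. Mature SP markers summed to 892 RPKM in the Tg library and 1835 RPKM in the WT library (13 of 16 lower, median log2 ratio -1.07). The SP list holds Il7r, Cd53, Gimap3 and Gimap4, which the paper reports as downregulated in this same RNA sequencing. Its count and sum are therefore not an independent readout of SP cells. Neutrophil markers summed to 154 RPKM in the Tg library and 568 RPKM in the WT library (7 of 8 measured lower, median log2 ratio -1.34). S100a8, the most abundant neutrophil marker, had 70.6 RPKM in the Tg library and 309 RPKM in the WT library. B cell markers summed to 25.1 RPKM in the Tg library and 35.5 RPKM in the WT library (2 of 5 measured lower), and macrophage and dendritic cell markers to 56.4 RPKM in the Tg library and 80.2 RPKM in the WT library (1 of 7 measured lower). The lower one was Lyz2, which neutrophils also express, with 34.7 RPKM in the Tg library and 56.2 RPKM in the WT library. The other 6 lay within 1.5-fold. The median log2 ratio of this list was -0.18, with 5 markers below their WT value and 2 above (5161 of the 11095 measured genes were below). Markers of thymic epithelium summed to 15.05 RPKM in the Tg library and 15.04 RPKM in the WT library (1 of 5 measured lower), and the only marker of these cell types with no fragment in a library was Aire of the thymic epithelium, in WT. Cell division markers summed to 998 RPKM in the Tg library and 348 RPKM in the WT library, a ratio of 2.87. The part of these shifts in the lower levels of Rel, Bcl3 and Traf5, of the receptors and of the induced genes was not tested.

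**Figure D5:**
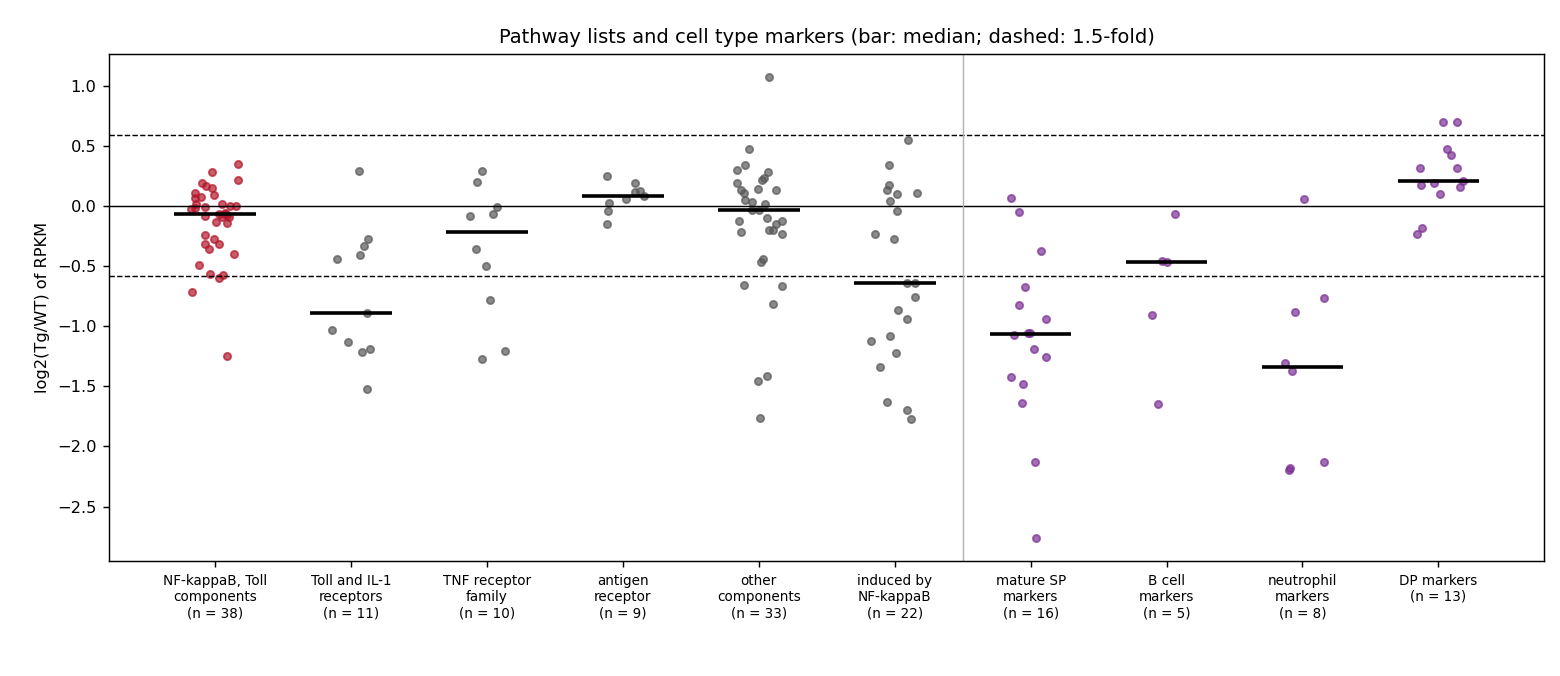
log2(Tg/WT) of RPKM for each measured gene (points) of the components, of 5 lists of surrounding genes and of 4 cell type marker lists, with medians as bars and 1.5-fold dashed. The components centre on -0.07, against -0.89 for Toll and IL-1 receptors, -0.64 for induced genes, -1.07 for mature SP markers and -1.34 for neutrophil markers. The mature SP list holds genes that the paper reports as downregulated in these same data.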

How the data were processed

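The authors aligned reads to mm10 (named in the submitters' processing notes) with a program spelled HotHap2, counted uniquely mapped reads and deposited RPKM values for 30533 RefSeq transcripts. Not given in the sources used here are the aligner's version and the use of strand. The methods describe a unit based on fragments, while the files name RPKM. Unread transcripts seem to carry the value that 1 read would give. Transcripts were named from RefSeq and GENCODE tables, which gave 23296 genes, and each gene was given the value of whichever transcript had the highest mean. Whole reads were recovered for 100% of transcripts within a relative tolerance of 1e-12, from 30793392 reads in the Tg library and 29045338 in the WT library, and 2 reads were taken as 1 fragment. The transcript length was taken nearest to that of GENCODE (within 20%, which held for 88.6% of the transcripts with one). Otherwise the smallest length that the values allow was used.

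No model was fitted, since there was 1 library per genotype. Genes with a mean of at least 1 RPKM were counted as higher or lower past 1.5-fold. Full values were given for components past 1.5-fold and for the most abundant of each role. In each list of surrounding genes, all measured genes past 1.5-fold were named, and where these were fewer than 4 the most abundant as well. Only some of those list genes were given values, and the rest were given by name alone. Genes named beyond this were chosen after their values were seen. The components and lists were chosen with earlier results of these data known. Alternatives were pseudocounts, scalings, minimums, transcript sums and means, a length trend and other fold thresholds. Scripts were checked on simulated data. Python 3.11.15, numpy 2.4.6, pandas 2.3.3, scipy 1.17.1 and matplotlib 3.10.9 were used.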

Additional observations from a re-analysis of the deposited data

How the results depend on the processing

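The direction of the components' median depended on rescaling to one sum, and the counts depended on scaling, pseudocount, minimum and threshold. The median log2 ratio of -0.07 moved to -0.10 with the median of all measured genes subtracted (-0.099), -0.11 with upper quartile scaling (-0.105), -0.12 with a trend over transcript length subtracted, -0.06 with a minimum mean of 5 RPKM (-0.056) and with sums or means of transcripts (-0.061 each), and 0.053 after rescaling to one sum. Of the 3 lower components, 1 was left with a pseudocount of 1 RPKM or a 2-fold threshold (Bcl3), and 0 with a minimum mean of 5 RPKM. There were 5 with median centring and 5 with upper quartile scaling, which add Ikbke and Otulin, and 8 where the WT value exceeded the Tg value by over 25%, with 1 component beyond this in the other direction. Lower Toll and IL-1 family receptors numbered 14 of 23 with no minimum (14.8% of all genes) and 1 of 3 at 5 RPKM (8.56% of all genes). Some of the 14 rested on few fragments, such as Tlr8 with 1 in the Tg library and 2 in the WT library. Lower induced genes numbered 5 of 13 at 5 RPKM. The alternatives for these lists were chosen after seeing the data. Of 389 values of single components under the alternatives, 376 stayed within their counting interval, and 13 did not, 11 of them after rescaling to one sum. Many of the 376 could not move, so their number is no measure of stability. A change of minimum leaves each ratio as it was. Sums or means of transcripts do the same for components with 1 listed transcript. No paired analysis was possible because each genotype had 1 library. Depth limited Irak3, Tirap, Bcl3 and Traf5 most.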
